A study of Macaca mulatta with 12 samples.

Results

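miR-21 is described here across 12 small RNA sequencing profiles of rhesus macaque tissues. The gene was taken by name, as mml-mir-21, from the study's list of pre-miRNAs. It is 1 of the 832 pre-miRNAs of this list that were read and used here, and its arms, miR-21-5p and miR-21-3p, are 2 of their 1219 mature sequences. The profiles were made from untreated wild-type animals at an age of 36 months, and all groups shared this genotype, age and lack of treatment. There were 2 profiles each of muscle, kidney and both the small and the large intestine, and 1 each of lung, liver, occipital lobe and spinal cord. The tissues came from 2 animals, and which profile belongs to which animal is not given in the sources used here. The p-values therefore measure the spread between these profiles, which may in part be technical.

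A miRNA gene is transcribed into a hairpin that the enzymes Drosha and Dicer cut into a short duplex of a 5p and a 3p arm. A strand of this duplex is loaded into an Argonaute protein, and its seed, the bases 2 to 8, pairs with the target mRNAs, which are then repressed. miR-21 is a conserved and broadly expressed miRNA that is known for high levels in tumours, in fibrosis and in inflammation, and its 5p arm targets mRNAs of growth control. In the RefSeq annotation of the assembly T2T-MMU8v2.0, which is not the build that the study used, MIR21 lies between the protein-coding genes TUBD1 and VMP1.

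The mature sequences are shown because all levels below were counted on them, with the seed in capitals. The seed of miR-21-5p was shared by 1 other of the 1219 mature sequences, miR-590-5p, and that of miR-21-3p by 0.
miR-21-5p: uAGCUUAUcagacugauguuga
miR-21-3p: cAACACCAgucgaugggcuguc
miR-590-5p: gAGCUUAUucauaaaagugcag
The level of miR-590-5p is not reported here.

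The read forms below carry the differences in length and in the 3' end described further on. They are given as sequenced, with T in place of U, and the capitals mark, in forms without a tail, the nucleotides beyond the annotated 3' end and, in forms with a tail, only the tail nucleotide that does not match the pre-miRNA.
miR-21-5p, 22 nt, the annotated form: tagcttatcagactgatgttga
miR-21-5p, 23 nt: tagcttatcagactgatgttgaC
miR-21-5p, 24 nt: tagcttatcagactgatgttgaCT
miR-21-5p, 23 nt with a C tail: tagcttatcagactgatgttgacC
miR-21-5p, 23 nt with an A tail: tagcttatcagactgatgttgacA
miR-21-3p, 22 nt, the annotated form: caacaccagtcgatgggctgtc
miR-21-3p, 21 nt: caacaccagtcgatgggctgt
miR-21-3p, 20 nt with a C tail: caacaccagtcgatgggctgC

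The profiles held between 22118095 and 25579064 valid reads, and between 35.9% (liver) and 68.4% (kidney 1) of them matched a mature miRNA exactly with both ends within 2 nt of the annotated ends. The labels of the tissues were checked with known tissue miRNAs. All 6 tested muscle markers (such as miR-133a, 11 in the list) were higher in muscle, where 22.6% of all miRNAs were called higher. All 7 tested neural markers (such as miR-9 and miR-124a, 8 in the list) were higher in the neural tissues, where 43.7% were. All 5 tested markers of intestine and kidney (such as miR-192, 6 in the list) were higher in the small intestine (13.2% of all miRNAs) and the large intestine (11.9%). In kidney (12.9%) 3 of these 5 were higher, and miR-215-5p there had a log2 difference of -1.33 (adjusted p = 0.14 in edgeR). The markers not tested did not pass the filter on the level. A marker can pass this filter through its own tissue alone, so these calls are only a check of the labels. In liver, which was not tested, miR-122a-5p reached 7320 RPTM, against at most 4.4 RPTM elsewhere. RPTM is the number of reads of a miRNA per 10000000 valid reads of its profile. In all, 2267005 reads came from mir-21 with 3' tails included. Of these, 0 matched another of the 832 pre-miRNAs used here equally well, and 409 started more than 5 nt from the start of either arm. Intervals of shares are Wilson intervals at 95%, which cover counting error only.

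miR-21-5p was among the most abundant miRNAs of every tissue outside the nervous system and was several fold lower in the occipital lobe and spinal cord. Muscle had 74508 and 116308 RPTM, a mean of 95408 ± 29557 (SD, n = 2), and was the tissue with the highest mean. Kidney had 60200 and 100087 RPTM, a mean of 80143 ± 28204 (SD, n = 2). Large intestine had 89274 and 56355 RPTM, a mean of 72815 ± 23277 (SD, n = 2). In these 3 tissues the profiles of a tissue differed by 1.56 to 1.66 times, and their ranges overlapped. Small intestine had 63427 and 63762 RPTM, which lay below both muscle profiles and within the ranges of kidney and large intestine. Liver had 78836 RPTM and lung 50990 RPTM, the lowest level outside the neural tissues. Spinal cord had 11942 RPTM and occipital lobe 5711 RPTM. These 2 profiles did not overlap with the other 10, since the lowest of the others was 4.27 times the higher neural profile. miR-21-5p ranked from 7 to 14 among the mature miRNAs of the 10 other profiles, but 40 and 50 in the spinal cord and occipital lobe profiles. These ranks are among the 1219 mature sequences used here, which cover only part of the study's list. In the share of all reads assigned to these sequences, miR-21-5p took between 0.88% (kidney 1) and 2.20% (liver) outside the neural tissues, but 0.21% in spinal cord and 0.10% in the occipital lobe.

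miR-21-3p, the arm that is less often found in Argonaute, was low in the same tissues, at a much lower level throughout. Muscle had 2105 and 3613 RPTM, kidney 1914 and 2543 RPTM, and large intestine 2540 and 1568 RPTM. Small intestine had 1210 and 1437 RPTM, liver 2743 RPTM and lung 1313 RPTM. The lowest levels were again those of spinal cord, with 381 RPTM, and occipital lobe, with 123 RPTM, which was counted on 283 reads. The lowest of the other 10 profiles was 3.17 times the higher neural profile. The log2 levels of the arms had a Pearson correlation of 0.98 over the 12 profiles and of 0.89 over the 10 outside the neural tissues. Both arms of a point come from the same library and the same pre-miRNA, so this is only a description.

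**Figure D1:**
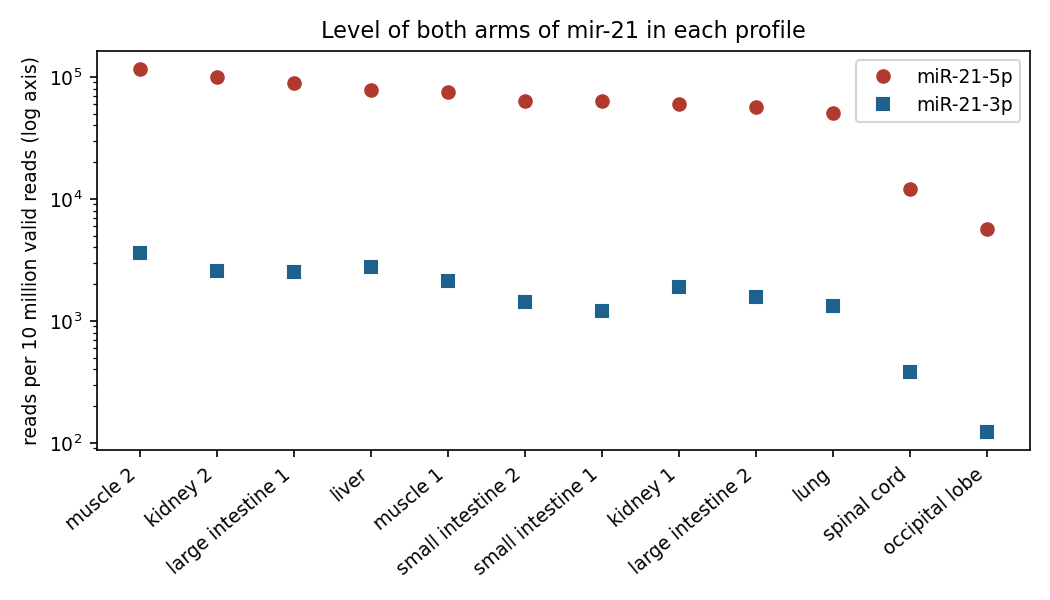
Level of miR-21-5p (circles) and miR-21-3p (squares) in each of the 12 profiles, in reads per 10000000 valid reads on a log axis, ordered by the level of miR-21-5p. The 10 profiles outside the neural tissues lie between 50990 and 116308 RPTM for miR-21-5p, and spinal cord (11942) and occipital lobe (5711) lie below them for both arms.

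Each tissue with 2 profiles was compared with the mean of the other groups to ask where miR-21 stands apart, with occipital lobe and spinal cord as 1 neural group. Liver and lung, with 1 profile each, were part of these averages but were not tested themselves. Both arms were lower in the neural group in edgeR's quasi-likelihood test. The log2 difference was -4.26 (SE 0.55, adjusted p = 2.39e-05) for miR-21-5p, or 19.2-fold lower, and -4.24 (SE 0.51, adjusted p = 1.35e-05) for miR-21-3p. Of the 371 mature sequences tested, 24.3% were called lower in this comparison, and 43.7% higher. The median difference of all 371 was 0.89, so that the arms lay 5.15 and 5.14 log2 units below that median. The size of the difference depends on the scale. edgeR's TMM factors ran from 0.555 (large intestine 2) to 2.35 (spinal cord), and with the valid reads as the scale the differences were -3.03 (adjusted p = 0.000188) and -2.98 (adjusted p = 0.000435). Without spinal cord they were -4.59 and -4.94, and without occipital lobe -3.996 and -3.78, and both arms passed the test in each case. In whole tissue, fewer cells that express miR-21 and less miR-21 per cell cannot be told apart.

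Outside the neural group, the tissues were close to each other. miR-21-5p was higher in kidney (log2 difference 1.18, SE 0.37, adjusted p = 0.044 in edgeR) and in large intestine (1.30, SE 0.37, adjusted p = 0.031), where 12.9% and 11.9% of all miRNAs were called higher. It did not pass the test in muscle (0.96, SE 0.38, adjusted p = 0.061) or in small intestine (1.003, SE 0.38, adjusted p = 0.080), where 22.6% and 13.2% were called higher. miR-21-3p was higher in kidney (1.17, SE 0.35, adjusted p = 0.034 in edgeR), in large intestine (1.34, SE 0.34, adjusted p = 0.018) and in muscle (1.10, SE 0.35, adjusted p = 0.026). In small intestine its difference was 0.53 (SE 0.36, adjusted p = 0.36 in edgeR), and -0.19 with the valid reads as the scale, which gave 0.29 for miR-21-5p there (adjusted p = 0.77 and 0.59 in edgeR). The neural group is 1 of the 6 groups averaged in each of these comparisons. With the 8 profiles of these 4 tissues alone, none of the differences passed the test: those of miR-21-5p were 0.46 in kidney, 0.21 in large intestine, -0.37 in muscle and -0.30 in small intestine, and those of miR-21-3p 0.54, 0.34, -0.13 and -0.74, in the same order. With the valid reads as the scale the kidney and large intestine calls were lost as well, with differences of 0.68 and 0.52 for miR-21-5p and of 0.69 and 0.55 for miR-21-3p.

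**Figure D2:**
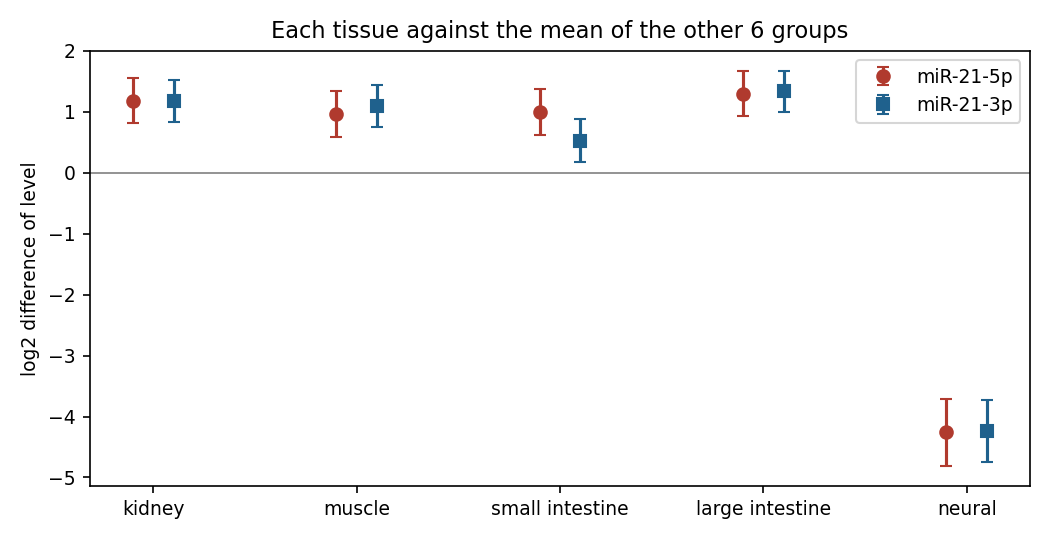
Log2 difference of the level of miR-21-5p (circles) and miR-21-3p (squares) between each of 5 groups and the mean of the other 6 groups, from edgeR with TMM factors. Bars are standard errors worked back from the F statistic of the test, and the line marks no difference. The neural group lies at -4.26 and -4.24 while the other 4 tissues lie between 0.53 and 1.34.

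The 10 pairs of these 5 groups gave the same picture without an average over the other groups. The neural group still joined occipital lobe and spinal cord, with 1 profile each. Their levels differed by 2.09 times for miR-21-5p and 3.10 times for miR-21-3p. miR-21-5p was higher in kidney (log2 difference 4.67), muscle (4.47), small intestine (4.51) and large intestine (4.76) than in the neural group, with standard errors of 0.59 to 0.60 and adjusted p between 4.32e-05 and 5.77e-05 in edgeR. The corresponding differences of miR-21-3p were 4.64, 4.58, 4.09 and 4.78. In these 4 comparisons 23.2%, 29.1%, 22.9% and 22.1% of all miRNAs were called higher. Among kidney, muscle and both intestines, neither arm passed the test in any of the 6 pairs. Kidney differed from muscle in 29.4%, from small intestine in 20.5% and from large intestine in 14.8% of all miRNAs, muscle from the intestines in 33.7% and 29.1%, and the intestines from each other in 1.89%. The differences of miR-21-5p there ran from -0.29 (muscle against large intestine) to 0.19 (kidney against muscle), with standard errors of 0.51, and those of miR-21-3p from -0.69 (small against large intestine) to 0.55 (kidney against small intestine), with standard errors of 0.48. A miss of the threshold does not show that the tissues had equal levels.

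The miRNAs whose log2 levels were most like those of miR-21-5p over the 12 profiles were, after miR-21-3p, miR-199a-3p (r = 0.89), miR-199a-5p of mir-199a-1 and mir-199a-2 (0.87), miR-214-3p (0.84), miR-574-3p (0.84) and miR-10a-5p (0.81). The same 5 miRNAs were closest to miR-21-3p, with r between 0.82 and 0.89. miR-199a and miR-214 are known from fibroblasts and other stromal cells. miR-199a-3p had 382 RPTM in occipital lobe, 855 RPTM in spinal cord and between 3896 and 18527 RPTM elsewhere. The likeness rested on the neural profiles, which were low for all of them. Over the 10 other profiles, r with miR-21-5p was -0.01 for miR-199a-3p, 0.31 for miR-199a-5p, 0.17 for miR-214-3p, 0.18 for miR-574-3p and -0.38 for miR-10a-5p. In muscle, for example, muscle 1 had 18527 RPTM of miR-199a-3p and muscle 2 6357 RPTM, while miR-21-5p was higher in muscle 2.

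Lists of miRNAs known from cell types were followed beside miR-21. Of the 5 tested stromal sequences (miR-199a and miR-214), 5 were lower in the neural group, with a median log2 difference of -4.42, and 5 were higher in muscle, with a median of 1.93. In muscle 22.6% of all miRNAs were called higher, and their median was -0.22. Of the 8 tested immune cell sequences (10 in the list), 7 were lower in the neural group, with a median of -2.42. Of the 6 tested epithelial sequences of the miR-200 family (8 in the list), 5 were lower, as were 4 of 4 smooth muscle sequences and miR-126-3p of endothelium. In the neural group 24.3% of all miRNAs were called lower, and their median was 0.89. Of the 3 sequences known from red blood cells, 0 were lower and miR-486-3p was higher. The summed stromal level ran from 423 to 994 RPTM in the neural profiles and from 4194 to 20408 RPTM elsewhere. The summed level of the neural markers was at least 292817 RPTM in the neural profiles and at most 1215 RPTM elsewhere. The summed stromal and epithelial levels were lower in both neural profiles than in all others. The other lists named here overlapped or, for the neural list, ran the other way. In spinal cord the immune cell list had 11284 RPTM, against 7904 RPTM in muscle 1. The smooth muscle list there had 684183 RPTM, against 517578 RPTM in kidney 1, and miR-126-3p 1136 RPTM, against 940 RPTM in kidney 2. The part of these lists in the level of miR-21 was not tested. Over the 10 other profiles, r of the summed levels with miR-21-5p was 0.09 for the stromal, -0.49 for the immune cell, -0.62 for the epithelial, -0.50 for the smooth muscle, -0.05 for the endothelial, 0.34 for the red blood cell and -0.63 for the neural list. With miR-21-3p, r was 0.24 for the stromal, -0.44 for the immune cell, -0.72 for the epithelial, -0.67 for the smooth muscle, 0.15 for the endothelial, 0.46 for the red blood cell and -0.79 for the neural list.

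miR-21-5p had between 28.7 and 52.4 times the reads of miR-21-3p, a spread of 1.82 times over profiles whose levels differed by 20.4 times. The ratio was 52.4 and 44.4 in small intestine, 39.4 and 31.5 in kidney, 35.1 and 35.9 in large intestine, and 35.4 and 32.2 in muscle. It was 38.8 in lung, 28.7 in liver, 31.3 in spinal cord and 46.4 in occipital lobe, where miR-21-3p made up 2.11% (1.88% to 2.37%) of both arms. Both small intestine profiles lay above the other profiles except occipital lobe, which lay between them. No tissue passed limma's test over 119 pre-miRNAs with both arms, of which 3.36% were called in kidney, 15.1% in muscle, 1.68% in small intestine, 2.52% in large intestine and 11.8% in the neural group. The largest difference, in small intestine, was a log2 ratio of 0.47 (SE 0.30, 95% interval -0.22 to 1.16, adjusted p = 0.44 in limma). The neural group differed by 0.07 (-0.62 to 0.76, adjusted p = 0.91 in limma). With 97.3% of its reads on the 5p arm over all profiles, mir-21 ranked 50 of these 119 pre-miRNAs, whose median was 67.0%.

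**Figure D3:**
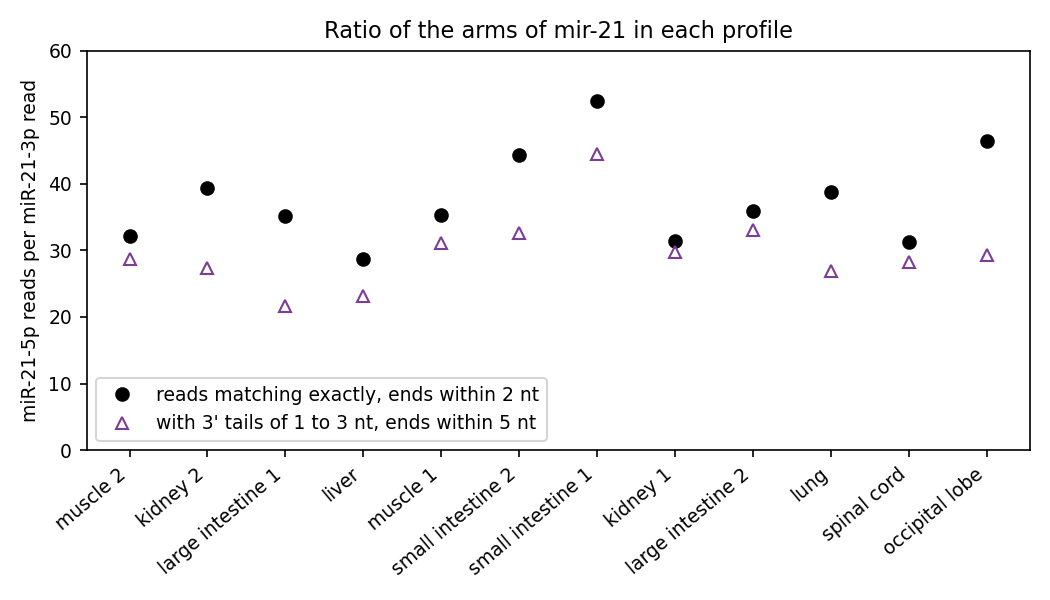
Reads of miR-21-5p per read of miR-21-3p in each profile, with profiles in the order of their miR-21-5p level. Filled circles count reads that match exactly with ends within 2 nt (28.7 to 52.4) and open triangles also count reads with a 3' tail of 1 to 3 nt and ends within 5 nt, which are lower in all 12 profiles.

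The ratio depends on which reads are counted for the 3p arm. When reads with a 3' tail were counted too and the ends were allowed within 5 nt, the ratio fell in all 12 profiles, to between 21.6 (large intestine 1) and 44.5 (small intestine 1), and the order of tissues changed, with occipital lobe at 29.4. When only reads identical to the annotated mature sequences were counted, the ratio ran from 42.5 in liver to 276 in spinal cord. These reads were between 23.8% and 39.7% of the reads of miR-21-5p, but between 4.39% and 20.7% of those of miR-21-3p. With identical reads the neural group passed the test (log2 ratio 1.33, SE 0.44, adjusted p = 0.046 in limma), on 8.69 and 16.7 RPTM of miR-21-3p in occipital lobe and spinal cord.

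The most abundant form of miR-21-5p was not the annotated one of 22 nt but the one of 23 nt, which ends with the next templated nucleotide, the C printed in capitals above. Of all untailed reads, 46.0% had 23 nt, 31.3% had 22 nt, 13.1% had 24 nt and 6.43% had 21 nt. The 23-nt form was the larger in 10 of 12 profiles, the exceptions being kidney 2 (37.7% against 39.2%) and spinal cord (35.9% against 37.9%). Its share was 56.5% and 44.9% in muscle, 50.4% and 37.7% in kidney, 50.4% and 39.7% in large intestine, and 49.4% and 40.7% in small intestine. The profiles of a tissue thus differed from each other, and the ranges of the 4 tissues overlapped. The 24-nt form was lowest in occipital lobe (7.22%, 6.80% to 7.68%) and highest in kidney 1 and liver (16.7% each). The 21-nt form was lowest in muscle 2 (2.75%) and highest in spinal cord (11.4%) and occipital lobe (10.2%).

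Reads ending at any nucleotide beyond the annotated 3' end were 59.97% of the untailed reads of miR-21-5p, against a median of 2.35% over 135 mature sequences, among which miR-21-5p ranked 10. No tissue passed limma's test of this share, in which 2.96% of the 135 sequences were called in kidney, 3.7% in muscle, 2.22% in small intestine, 0% in large intestine and 5.93% in the neural group. The log2 odds differed by -0.76 in the neural group (SE 0.33, 95% interval -1.53 to 0.02, adjusted p = 0.21 in limma) and by 0.64 in muscle (SE 0.33, -0.13 to 1.41, adjusted p = 0.34).

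miR-21-3p had the opposite shift. Its most abundant form was 1 nt shorter than the annotated 22 nt, in 12 of 12 profiles. The 21-nt form made up between 75.9% (liver) and 90.5% (spinal cord) of the untailed reads, and the annotated form between 4.37% (spinal cord) and 20.7% (liver, 19.7% to 21.7%). Liver stood apart from the other 11 profiles, in which the annotated form reached at most 13.1% (large intestine 1), but it had 1 profile and was not tested. These shares leave out tailed reads, among them the reads with a C in place of the last U described further on, which varied between libraries. Reads beyond the annotated end were 2.35% of the untailed reads. Their log2 odds differed by -1.08 in large intestine (SE 0.27, 95% interval -1.71 to -0.45), which did not pass the adjustment (adjusted p = 0.095 in limma, unadjusted 0.0042). They differed the other way in the neural group, by 0.74 (SE 0.27, 0.11 to 1.36, adjusted p = 0.16 in limma), and in kidney, by 0.71 (SE 0.27, 0.08 to 1.34, adjusted p = 0.34 in limma), which did not pass either.

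**Figure D4:**
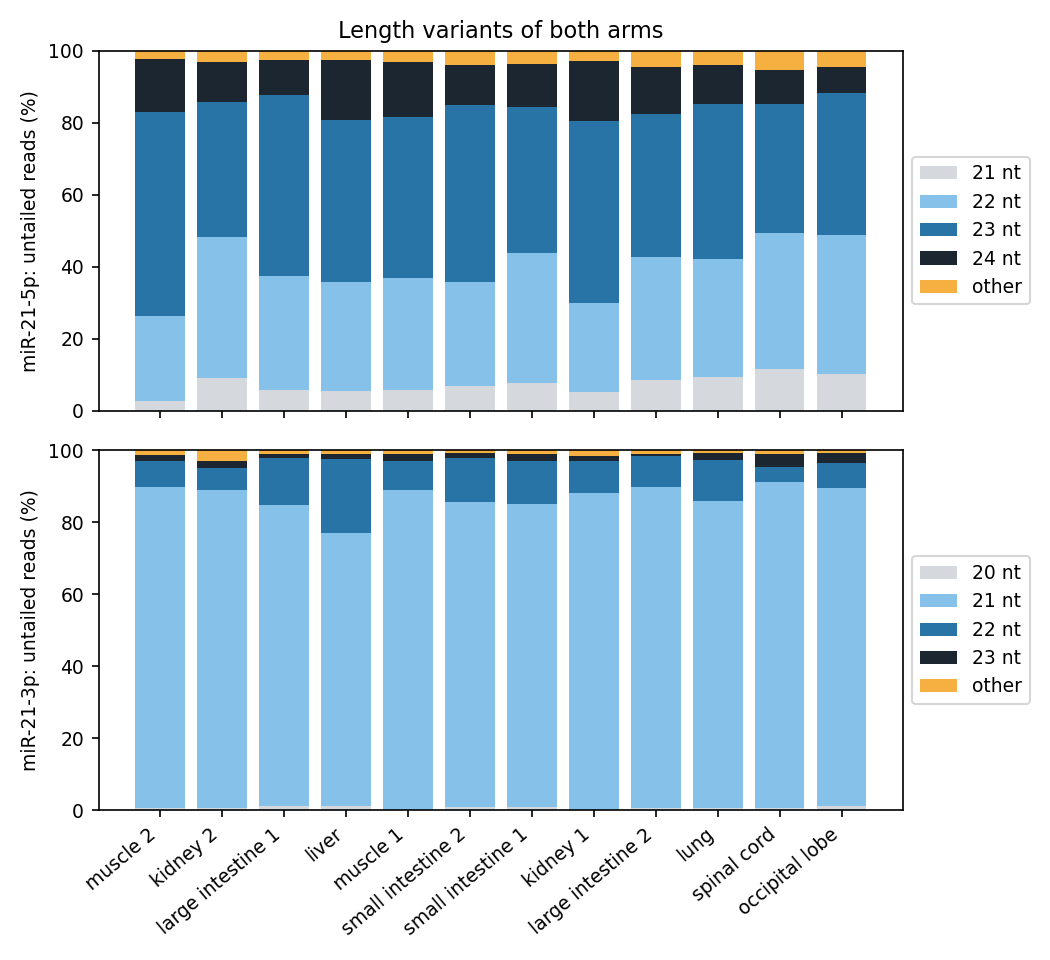
Share of untailed reads by length for reads that begin at the annotated 5' end of miR-21-5p (upper panel) and miR-21-3p (lower panel) in each profile, in percent, where "other" holds all other lengths and starts. The 23-nt form leads for miR-21-5p in 10 of 12 profiles and the 21-nt form leads for miR-21-3p in all 12.

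The 5' end, which sets the seed, was nearly constant. Between 98.96% and 99.54% of the untailed reads of miR-21-5p began at the annotated nucleotide in every profile. Reads with another start within 2 nt were 0.27% for miR-21-5p and 1.17% for miR-21-3p, against a median of 0.66% over 136 mature sequences. In kidney the log2 odds of another start differed by 1.36 for miR-21-3p (SE 0.32, 95% interval 0.61 to 2.11, adjusted p = 0.091 in limma) and by 0.56 for miR-21-5p (SE 0.17, 0.17 to 0.95, adjusted p = 0.21). Neither passed the adjustment. Of the 136 sequences, 2.21% were called in kidney, 5.88% in muscle, 1.47% in small intestine, 0% in large intestine and 4.41% in the neural group.

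Non-templated nucleotides at the 3' end were counted after the longest match to the pre-miRNA, so that an added nucleotide equal to the template cannot be seen. A tail of only A was found on 3.25% of all reads of miR-21-5p, from 2.20% (muscle 2) to 4.04% (kidney 2). The A tail on the 23-nt form, whose sequence is printed above, was the most frequent, with 1.95% of all reads, from 1.19% (occipital lobe) to 2.70% (liver). Adenylation of this kind is known to be added to miR-21 by the poly(A) polymerase PAPD5 and to precede its trimming by the exonuclease PARN. A tail of only A was found on 1.46% of the reads of miR-21-3p, from 1.07% (muscle 2) to 2.14% (occipital lobe), and the share was lower than that of miR-21-5p in all 12 profiles. Tails of only U, which other terminal transferases add, were seen less often than A tails in 12 of 12 profiles for both arms. They were on 0.17% of the reads of miR-21-5p and 0.60% of those of miR-21-3p. For miR-21-5p this comparison is limited by the template, which has U after the 23-nt form. A U added to this most abundant form is counted as the untailed 24-nt form, while an A added to it is seen. An A added to the 21-nt form of miR-21-5p is hidden in the same way. For miR-21-3p the template has U after the 20-nt and the annotated 22-nt forms, so a U added to these is hidden too. A U added to its most abundant form, of 21 nt, is seen. The untailed 23-nt form of miR-21-3p, which would hold such hidden U, had 792 reads. Reads of this arm with a tail of only U were 463, and those with a tail of only A 1132. Against reads without a tail, A tails were 3.51% for miR-21-5p and 2.16% for miR-21-3p, below the median of 4.32% over 145 mature sequences, and U tails were 0.20% and 0.83%, below the median of 2.29%.

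No tissue passed limma's test of A or U tails for either arm. Of the 145 sequences, A tails were called for 15.9% in muscle, 6.21% in the neural group and 0% in each other tissue, and U tails for 0.69% in kidney, 2.76% in muscle, 4.14% in the neural group and 0% in both intestines. In muscle the log2 odds of an A tail were -0.30 (SE 0.21, 95% interval -0.78 to 0.17, adjusted p = 0.37 in limma) for miR-21-5p and -0.63 (SE 0.32, -1.38 to 0.13, adjusted p = 0.25 in limma) for miR-21-3p. In large intestine the value of miR-21-5p was -0.43 (SE 0.21, -0.90 to 0.05, adjusted p = 0.78 in limma). In the neural group the log2 odds of a U tail were -0.75 (SE 0.33, -1.51 to 0.01, adjusted p = 0.19 in limma) for miR-21-3p, on 1 read in occipital lobe and 5 in spinal cord.

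The most frequent mismatch at the 3' end was a C, and it varied between libraries of the same tissue in kidney and both intestines. A tail of only C was found on 24.5% of the reads of miR-21-3p and 8.94% of those of miR-21-5p. Nearly all of it on miR-21-3p was a C at nucleotide 21, where the pre-miRNA has U, as in the form printed last above. Among reads ending there, the C made up 13.5% in kidney 1 and 35.5% in kidney 2, 45.0% in large intestine 1 and 12.7% in large intestine 2, and 20.1% in small intestine 1 and 33.9% in small intestine 2. The muscle profiles were alike, with 20.2% and 17.9%. For miR-21-5p the C at nucleotide 24 ran from 22.7% (large intestine 2) to 51.3% (large intestine 1). A U read as C and a C added after the preceding nucleotide give the same read and cannot be told apart.

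Other miRNAs showed the same C in the same libraries. The median share of C in place of a last U over 87 to 151 other mature sequences was 11.4% in kidney 1 and 31.2% in kidney 2, and 37.1% in large intestine 1 and 11.3% in large intestine 2. Both arms of mir-21 lay above the median in 12 of 12 profiles, and the shares followed it with r = 0.95 for miR-21-3p and 0.90 for miR-21-5p over the 12 profiles. The measures differ, since the median was taken within the annotated mature sequences, over reads with the C or the U. The share of miR-21-5p lies beyond its annotated end, and the totals of both arms also hold reads with A or G there. miR-21-3p lay below the upper quartile of the other sequences in both profiles of kidney, muscle and large intestine (45.0% against 45.8% in large intestine 1). In small intestine 2 it lay above that quartile. The share of miR-21-5p was at least 22.7% in every profile. It lay above the upper quartile at least in both profiles of large intestine and muscle, and in kidney 1, small intestine 1 and spinal cord. In large intestine 1 it was 51.3% against 45.8%. The share of C in place of a last U was chosen after its values were seen and was not tested between tissues. It bears on the levels and the arm ratio above, because the reads with this C count as tailed and are left out of the exact counts. The shares of untailed reads by length and beyond the annotated 3' end leave them out too. For miR-21-5p 166671 reads had this C at nucleotide 24, beside 242320 untailed 24-nt reads. For miR-21-3p 18126 reads had it at nucleotide 21, beside 43848 untailed 21-nt reads. How far this changed the length shares was not tested. A last A read as G at nucleotide 22 of miR-21-5p was less frequent, from 1.39% (small intestine 2) to 6.93% (liver).

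**Figure D5:**
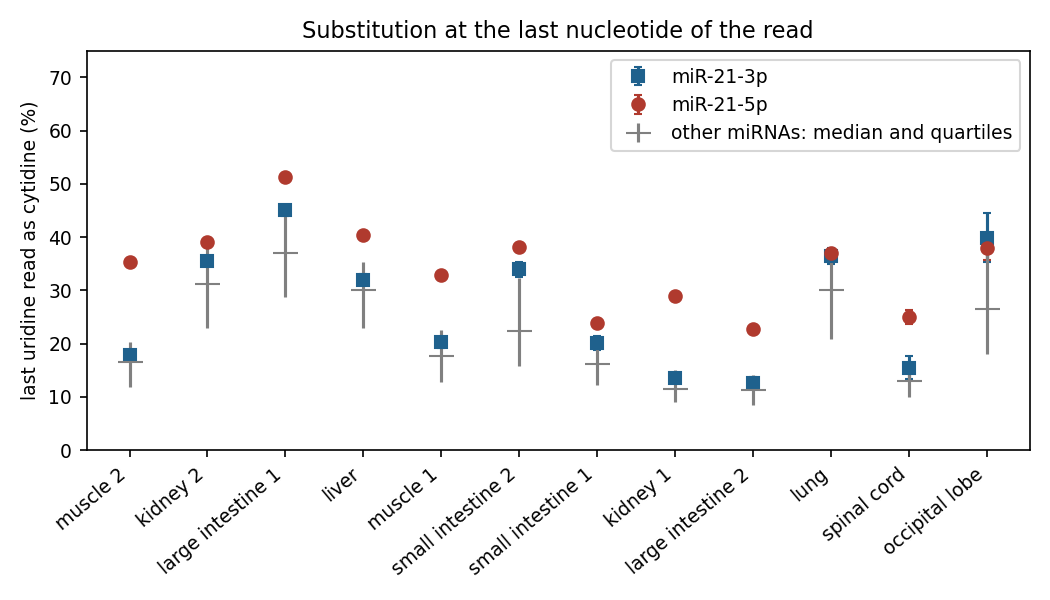
Share of reads, in percent, with C in place of a final U at nucleotide 21 of miR-21-3p (squares) and nucleotide 24 of miR-21-5p (circles), with Wilson 95% intervals, beside the median and quartiles over other mature sequences (grey). The grey medians run from 11.3% (large intestine 2) to 37.1% (large intestine 1), and both arms lie above them in all 12 profiles. miR-21-3p lies below the upper quartile in both profiles of kidney, muscle and large intestine, but above it in small intestine 2. miR-21-5p lies above it at least in both profiles of large intestine and muscle, and in kidney 1, small intestine 1 and spinal cord. The grey values were taken within the annotated mature sequences, while nucleotide 24 lies beyond the annotated end of miR-21-5p.

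Mismatches inside the reads were rare. In all, 79945 reads of mir-21 had 1 internal mismatch. Counted from 1 at the 5' end of the arm, the most frequent change over all profiles was A12G in miR-21-5p, at 0.24% of the reads, followed by other changes of the same kind. The median over the sites was 0.20% for A-to-G and 0.14% for U-to-C changes of miR-21-5p and 0.15% and 0.10% for those of miR-21-3p. The other types had medians of at most 0.05%. With kidney 1 at 0.28% (0.26% to 0.31%) and kidney 2 at 0.21% (0.20% to 0.23%), this change ran from 0.18% to 0.28% over the 12 profiles. U19G of miR-21-5p, named after its values were seen, lay above the other changes of its type, with 0.18% of the reads, from 0.09% to 0.32%.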

How the data were processed

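Small RNAs of 12 profiles were sequenced. The deposited values are read counts per unique sequence, for which the authors kept reads scoring at least 30 in the first 25 nt before removing the 3' adapter, dropping sequences under 18 nt and counting identical ones, without normalization. The depth was 22118095 to 25579064 reads per profile, and no sample was left out.

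Python 3.11.15 with pandas 2.3.3 aligned each sequence to 832 pre-miRNAs by an exact match of at least 16 nt from the 5' end, with an unmatched 3' tail of up to 3 nt. Untailed reads with both ends within 2 nt of a mature sequence gave its count and its RPTM. Tested were mature sequences averaging 5 RPTM or more, with an SD of 1 or more. edgeR 4.0.16 (quasi-likelihood, TMM) in R 4.3.3 compared levels in 7 groups. The SE of a level difference was worked back from this test, as the absolute log2 difference over the square root of the F statistic. limma 3.58.1 compared log2 odds with 0.5 reads added, over features with at least 50 reads in every profile. Both used Benjamini-Hochberg adjustment and a threshold of 0.05, and were tested on simulated data. DESeq2 1.42.0 was an alternative. Named miRNAs are the arms of mir-21, a miRNA with the same seed, the 5 most correlated miRNAs of each arm, and cell type lists. The gene and lists were chosen with earlier results of these data known. The alternatives changed the scale, the filter, the assignment of reads, the pseudocount, the read minimum, the groups, the block and the profiles. No coordinates are given, since no genome of the study's build was used here.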

Additional observations from a re-analysis of the deposited data

How the results depend on the processing

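The lower level of both arms in the neural group passed the test under all 9 alternatives and all 10 fits without a profile. The log2 difference of miR-21-5p ran from -4.53 to -3.03 and that of miR-21-3p from -5.47 to -2.98, the ends nearest to 0 coming from the valid reads as the scale. The other level calls depended on the processing. With the valid reads as the scale, calls were lost for kidney (0.68 for miR-21-5p and 0.69 for miR-21-3p) and large intestine (0.52 and 0.55). With identical reads they were lost for miR-21-3p in kidney (0.71) and muscle (0.50). With tailed reads counted, miR-21-5p passed in muscle (1.06) and miR-21-3p did not (0.99). With tails and ends within 5 nt, an alternative chosen after seeing the data, these values were 1.07 and 0.99. DESeq2 called miR-21-5p in muscle (0.99) and small intestine (1.04). With 8 groups, in which the neural tissues count as 2 of the others, miR-21-5p passed in muscle (1.47) and small intestine (1.51), and miR-21-3p in small intestine (1.07). The cause of these changes was not tested. The arm ratio passed under 1 alternative, identical reads in the neural group (1.33), and a templated extension of miR-21-3p in the neural group passed with 5 reads added (1.02).

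The replicate numbers were not shown to pair the profiles: same-numbered profiles of different tissues deviated together with a mean r of 0.03 (-0.14 to 0.15 over 6 pairs of tissues). In a fit of the 8 numbered profiles with a replicate block, which leaves out the neural group, calls were lost for kidney (0.41 and 0.50) and large intestine (0.28 and 0.41), and miR-21-3p in muscle changed sign (-0.15). Without the block on the same 8 profiles, chosen after seeing the data, the values were 0.46 and 0.54 in kidney, 0.21 and 0.34 in large intestine and -0.13 in muscle, so that leaving out the other profiles gives these losses also without a block. The block changed no other call.

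Leaving out 1 profile gave, for miR-21-5p, 0.66 to 1.58 in kidney, 1.06 to 1.60 in large intestine, 0.68 to 1.20 in muscle and 0.85 to 1.06 in small intestine, and for miR-21-3p 0.86 to 1.46 in kidney, 1.08 to 1.65 in large intestine and 0.73 to 1.39 in muscle. The kidney calls were lost without kidney 1 (1.58 and 1.46), kidney 2 (0.66 and 0.86), large intestine 2 (1.14 and 1.14) or small intestine 1 (1.19 and 1.17), and that of miR-21-5p also without large intestine 1 (1.22), muscle 1 (1.14) or small intestine 2 (1.18). The large intestine calls were lost without large intestine 1 (1.06 and 1.08), large intestine 2 (1.60 and 1.65) or small intestine 1 (1.29 and 1.31), that of miR-21-5p without muscle 1 (1.26) or small intestine 2 (1.29), and that of miR-21-3p without kidney 1 (1.28). The muscle call of miR-21-3p was lost without kidney 1 (1.06), large intestine 2 (1.05), muscle 2 (0.73) or small intestine 1 (1.08). miR-21-5p passed in muscle without kidney 2 (1.06), occipital lobe (0.91) or spinal cord (1.01), and in small intestine without occipital lobe (0.96) or spinal cord (1.06). A profile left alone in its tissue was assumed to vary like the others.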
